A study of Mus musculus with 12 samples.

Results

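The co-cultured 3T3-L1 cells given serotonin were compared with untreated co-cultured cells, using the Cy5 (red) channel of 6 of the 12 dual-colour arrays of the study. The arrays were chosen by their titles alone, S100 against NT, and were paired by time. The S100 wells held 100 µM serotonin for 6 h, 24 h or 48 h and no cortisol, and the NT wells held neither hormone. In both groups 3T3-L1 cells, a mouse fibroblast line able to become adipocytes, grew in the lower well beneath an insert with 0.4 µm pores that held RAW264.7 cells, a mouse macrophage line. Hormone stocks were made in DMSO, no solvent-only well was described, and the medium was renewed with hormone after 24 h. RNA came from the lower well only. Each treatment and time had 1 array, so a difference at a single time has no replicate, and the 3 pairs serve as replicates only over time. The remaining arrays carried 100 µM cortisol (C100) or 100 µM of each hormone (CS100). The Cy3 (green) channel of every array held 3T3-L1 cells grown alone. The 4 arrays of a time lay on 1 slide, which leaves time and slide inseparable, and each S100 array shared its slide with its NT array.

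Serotonin is made from tryptophan by tryptophan hydroxylase and aromatic amino acid decarboxylase, enters cells through the serotonin transporter or organic cation transporters, and is broken down chiefly by monoamine oxidase A. Its receptors are mostly coupled to G proteins: the HTR2 family raises calcium through phospholipase C, other families raise or lower cyclic AMP, and HTR3 is an ion channel. In adipose tissue serotonin is known as a signal for lipid storage, and HTR2A and HTR2B have been described in adipocytes. Macrophage products such as TNF act on nearby fibroblasts through NF-kB, and type I interferons act through STAT proteins on genes that carry an interferon response element.

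All values below are log2 of the processed red signal after quantile normalization between the 12 arrays, and differences are S100 minus NT. The NT array at 6 h stood apart from the rest. Its correlation across genes with the S100 array of 6 h was 0.984, against 0.990 to 0.994 for S100 with the other arrays of that time, and its median red signal before normalization was 75.1, against 46.1 for the S100 array. At 24 h and 48 h the S100 and NT arrays correlated at 0.995 and 0.989. In the red channel Zbtb16, a strongly glucocorticoid-induced repressor gene, followed the cortisol labels. It measured 8.19, 8.20 and 7.36 on the S100 arrays at 6, 24 and 48 h. On the NT arrays it measured 7.41, 7.50 and 7.91, and on the C100 arrays 10.02 to 10.29. In red its S100 minus NT differences were thus 0.78, 0.70 and -0.55, while those of Fkbp5, another glucocorticoid-induced gene, were -0.23, -0.35 and -0.06. Ear2 and Tent5b, higher still on the C100 arrays and named after their values were seen, went the way of Zbtb16. They differed by 1.04, 1.12 and -0.53 and by 0.70, 0.73 and -0.48. Tsc22d3 and Klf9, both glucocorticoid-induced, differed by 0.01, -0.13 and -0.63 and by 0.07, -0.06 and 0.245. The source of these red differences was not tested. In the green channel of the same arrays Zbtb16 measured 10.01, 10.02 and 7.70 under S100 and 7.74, 7.95 and 7.37 under NT. By Zbtb16 the cells alone of the S100 arrays at 6 h and 24 h went against their label. By the green median of the glucocorticoid-induced genes they lay between NT and C100. At 6 h this median was 12.9 for S100, 12.5 for NT and 13.5 for C100. At 24 h it was 13.6, 13.2 and 14. The fibroblast genes Pdgfra, Col1a1 and Thy1 were well above background on all 6 arrays, as was the fatty acid carrier Fabp4, whereas the adipocyte genes Adipoq and Plin1 were above it on 0 of 6. Of 25 macrophage markers 13 could be tested. Csf1r, Itgam and Cd14 were well above background on all 6 arrays. Ptprc and Spi1, which with Csf1r and Adgre1 had been set as defining macrophage markers, were so on 1 of 6 each. Fcgr3 and Cd52 also passed on 1 of 6 and Lyz2 on 2 of 6. Adgre1, which defines mature macrophages, passed on 0 of 6, as did Fcgr1, Laptm5, Msr1 and C1qa.

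**Figure D1:**
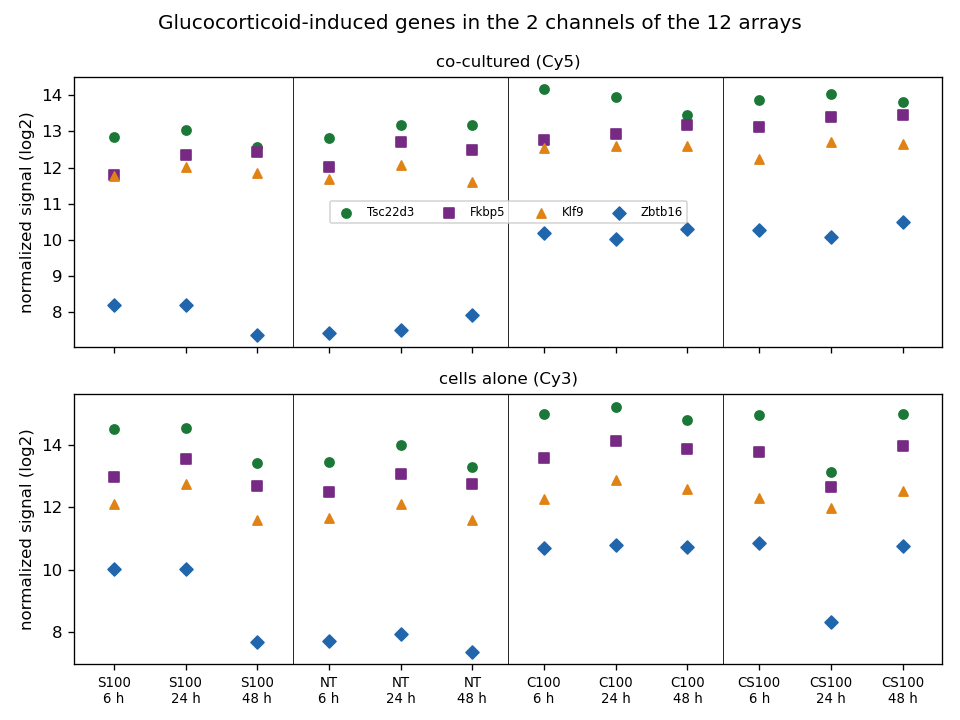
Normalized signal (log2) of 4 glucocorticoid-induced genes on the 12 arrays, 1 point per array and gene, co-cultured cells (Cy5) above and cells alone (Cy3) below, with S100 and NT arrays left of the cortisol arrays. Zbtb16 lay between 7.36 and 8.20 in co-cultured S100 cells but at 10.01 and 10.02 in the cells alone of the S100 arrays at 6 h and 24 h.

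Over the 3 pairs no gene passed the test. Of 12920 genes, limma called 0 higher and 0 lower in S100 than in NT cells (0 percent in each direction) where a call needed an adjusted p below 0.05 together with 1.5-fold, and the smallest adjusted p was 0.719. At an unadjusted p under 0.05 there were 888 genes, 6.87% of those tested, 474 of them higher and 414 lower. A p above the threshold does not show that the cells were alike, and in bulk RNA fewer cells of a type and less RNA per cell cannot be told apart. The differences at 6 h and 24 h correlated across genes at r = 0.05, those at 6 h and 48 h at 0.01, and those at 24 h and 48 h at -0.02. Among the 7488 genes with a mean log2 signal of at least 10 the first of these was 0.20 and the others 0.01 and 0.03. These correlations describe genes, which share probes and base composition and are not independent. A total of 3675 of 12612 genes measured on all 6 arrays, 29.1%, had the same sign at all 3 times.

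The genes with the smallest p that differed by at least 1.5-fold on average, the same way in 3 of 3 pairs, were described without being called, all with an adjusted p of 0.719. Each SE given comes from the fit to the arrays of all treatments, not from the spread of the 3 pairs. Cks2, a subunit that binds cyclin-dependent kinases, measured 10.56, 9.90 and 11.35 in S100 cells at 6, 24 and 48 h. In NT cells it measured 9.21, 9.54 and 10.61, a mean difference of 0.81 (SE 0.16). Fmnl3, a formin that elongates actin filaments, measured 9.11, 8.56 and 9.26 in S100 cells against 8.40, 7.41 and 8.73 in NT cells (0.80, SE 0.14). The S100 value was above the NT value of its own time in every pair for both genes, while the ranges of the groups overlapped. Ifi209, an interferon-inducible gene, measured 6.78, 7.69 and 6.37 in S100 cells against 5.03, 7.36 and 4.98 in NT cells. Nfkbie, which encodes an inhibitor of NF-kB, measured 7.19, 6.35 and 6.10 against 5.90, 6.04 and 5.03. Both of these were dim. The other genes on the high side were Zfp948, Thumpd2, Serpinf2, Armcx2, Plscr2 and Garem1, with mean differences of 0.63 for Armcx2 to 1.17 for Zfp948.

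On the low side Lmbrd1, which serves lysosomal cobalamin export, measured 10.40, 10.06 and 9.60 in S100 cells and 10.82, 10.76 and 10.27 in NT cells (-0.60, SE 0.11). Its 3 differences lay between -0.42 and -0.70. Pts, an enzyme in the synthesis of tetrahydrobiopterin, the cofactor of tryptophan hydroxylase, measured 9.57, 9.92 and 10.05 in S100 cells and 10.48, 10.35 and 10.59 in NT cells, and here the groups did not overlap. Pde5a, the phosphodiesterase that degrades cyclic GMP, measured 6.46, 7.34 and 6.09 against 8.18, 7.73 and 7.45, also without overlap. Galnt15, a glycosyltransferase gene, had the largest mean difference of the 20 genes, -1.50 (SE 0.37), but at a low level of 5.06, 5.37 and 5.72 in S100 cells against 6.55, 5.93 and 8.19 in NT cells. Cep295, Ube2d2a, Fastkd3, Dhx32, Myadm and Exoc1 completed the low side, with mean differences of -0.63 for Cep295 to -1.11 for Fastkd3. Other probes behaved differently for some of these: the second probe of Cep295 differed by 0.17, 0.56 and -0.53 at 6, 24 and 48 h, those of Ube2d2a by -0.18 to 0.33, and that of Fastkd3 by -0.47, -0.03 and -0.13. In CS100 over C100, a contrast that shares no array with S100 over NT, 12 of these 20 genes had the same sign, against 52.8% of all genes.

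**Figure D2:**
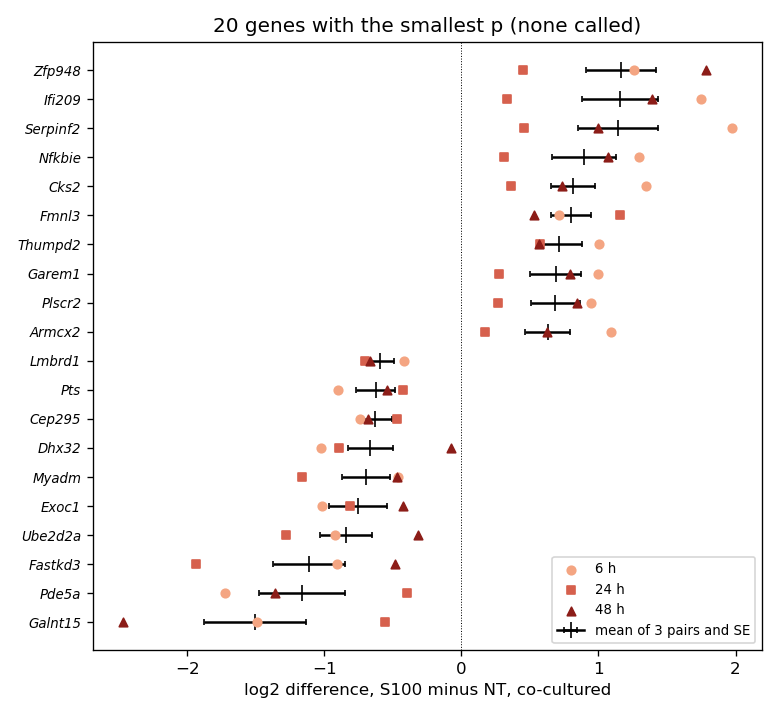
Log2 differences of normalized red signal, S100 minus NT, at 6, 24 and 48 h (points, 1 pair each), with limma mean and SE. Shown are the 10 genes higher and the 10 lower in S100 with the smallest p. The SE comes from the fit to the arrays of all treatments, not from the spread of the 3 pairs. Every gene kept its sign in 3 of 3 pairs, mean differences ran from -1.50 for Galnt15 to 1.17 for Zfp948, and none was called.

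At single times the pairs differed in size and direction. At 6 h 1538 genes (12%) were at least 1.5-fold higher and 477 (3.73%) lower in S100 cells. At 24 h 237 (1.84%) were higher and 280 (2.17%) lower, and at 48 h 653 (5.12%) were higher and 854 (6.69%) lower. These are counts of a fold between 1 array and 1 array, with no test. The excess of higher genes at 6 h turned round with the scaling, since 76.3% of the genes past the fold were higher after quantile normalization and 26.1% after scaling each array to its 75th percentile, with 404 higher and 1143 lower. Most of these genes were dim. Of the 1538 genes higher at 6 h, 823 were not well above background on the NT array, the one that stood apart, and 1352 had a mean log2 signal under 8. With both arrays of the pair well above background 714 genes were higher and 366 lower at 6 h, 202 higher and 234 lower at 24 h, and 427 higher and 687 lower at 48 h. Among genes with a mean log2 signal of at least 10, 100 were higher and 83 lower at 6 h, 39 and 74 at 24 h, and 98 and 206 at 48 h.

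**Figure D3:**
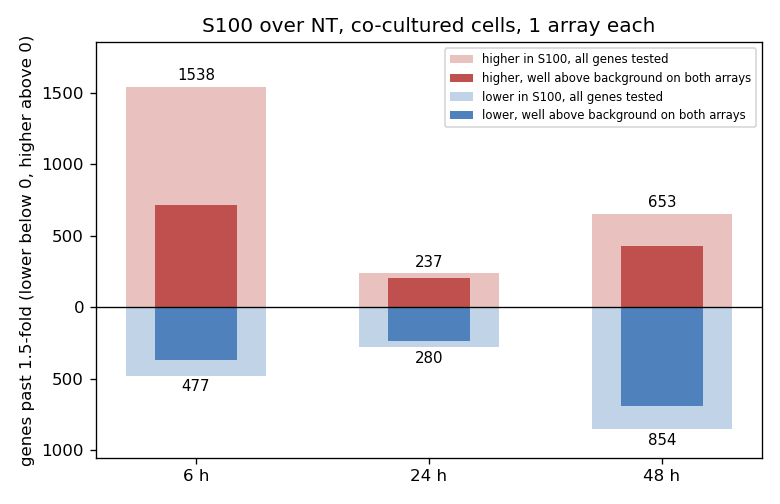
Numbers of genes at least 1.5-fold higher (above 0) or lower (below 0) in S100 than in NT co-cultured cells at 6, 24 and 48 h, 1 array each. Pale bars count all genes tested and dark bars those well above background on both arrays of the pair, 714 higher and 366 lower at 6 h.

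Past 1.5-fold at all 3 times were 13 genes on the high side (0.103%) and 3 on the low side (0.0238%). Nearly all lay near background. Aldh1a7, an aldehyde dehydrogenase, was the only gene of the 13 that was well above background on all 6 arrays, at 7.69, 7.44 and 6.59 in S100 cells and 6.55, 6.30 and 5.75 in NT cells. Prl3a1, of the prolactin family, was the only such gene of the 3, at 4.94, 4.98 and 7.02 against 6.17, 5.68 and 8.55. Both were named after their values were seen. Aldh1a7 was higher still on the C100 arrays, at 8.54, 9.07 and 9.29, and its mean CS100 minus C100 difference was 0.08. Ackr2, a scavenger receptor for chemokines, measured 4.99, 4.78 and 4.91 in S100 cells and 6.02, 5.46 and 5.68 in NT cells without overlap, and was well above background on 5 of 6 arrays.

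Interferon-stimulated genes lay mostly higher in serotonin-treated cells at 6 h and 24 h. Of 36 genes tested, 32 were higher in S100 than in NT cells at 6 h, 32 at 24 h and 23 at 48 h, against 53.2%, 49.4% and 48.0% of all genes. The list's median difference was 0.39, 0.27 and 0.09 at 6, 24 and 48 h, against 0.02, -0.0019 and -0.01 over all genes. At least 1.5-fold higher were 12 genes at 6 h, 4 at 24 h and 3 at 48 h, of which 9, 4 and 3 were well above background on both arrays. At least 1.5-fold lower were 0, 0 and 1 genes. The share at 6 h, 12 of 36, stood beside a background of 12%, and that at 24 h, 4 of 36, beside 1.84%. No member was called over the 3 pairs, and 6 had an unadjusted p under 0.05. The medians at 6 h and 24 h lay between 0.19 and 0.31 under the 75th percentile, loess and normexp alternatives. The 6 h values rest on the NT array that stood apart, and those of 24 h do not. Both rest on S100 arrays whose green labels went against Zbtb16, a gene that in red was 0.78 and 0.70 above NT there.

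Ifit1, which binds foreign RNA, measured 10.58, 12.11 and 10.49 in S100 cells and 9.53, 11.44 and 10.66 in NT cells, so it was higher at 6 h and 24 h and not at 48 h. Rsad2, the antiviral enzyme viperin, measured 11.01, 12.37 and 11.09 in S100 cells against 9.89, 11.91 and 11.14 in NT cells. Cmpk2, the mitochondrial nucleotide kinase next to Rsad2 in the genome, measured 9.66, 10.12 and 8.86 against 8.55, 9.12 and 9.13. All of these shared the same order, the widest gap at 6 h, a smaller one at 24 h and no excess at 48 h. Cxcl10, a chemokine that draws T cells, measured 13.22, 13.62 and 12.78 in S100 cells and 12.27, 12.87 and 12.57 in NT cells, a mean difference of 0.64 (SE 0.21, adjusted p = 0.719). It was higher in 3 of 3 pairs. Igtp, an interferon-inducible GTPase, measured 12.84, 13.38 and 13.02 against 12.29, 13.04 and 12.79, and Trim30a 11.08, 11.68 and 11.01 against 10.57, 11.28 and 10.50. Their mean differences were 0.37 (SE 0.13) and 0.47 (SE 0.17).

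The same list was read in CS100 over C100, where serotonin was added to cortisol on arrays that S100 over NT does not use. There 32 of 36 genes were higher at 6 h, 31 at 24 h and 9 at 48 h, with medians of 0.28, 0.48 and -0.13. At least 1.5-fold higher were 6 genes at 6 h, beside 3.03% of all genes, and 17 at 24 h, beside 3.94%. Members differed between the contrasts: at 24 h the difference of Ifit3 was 0.01 in S100 over NT and 2.50 in CS100 over C100, and that of Cxcl10 was 0.76 in S100 over NT and -0.03 in CS100 over C100. In the cells alone of the S100 and NT arrays the list's median was -0.26, -0.71 and 0.05 at 6, 24 and 48 h, on the green channels whose S100 labels at 6 h and 24 h went against Zbtb16.

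**Figure D4:**
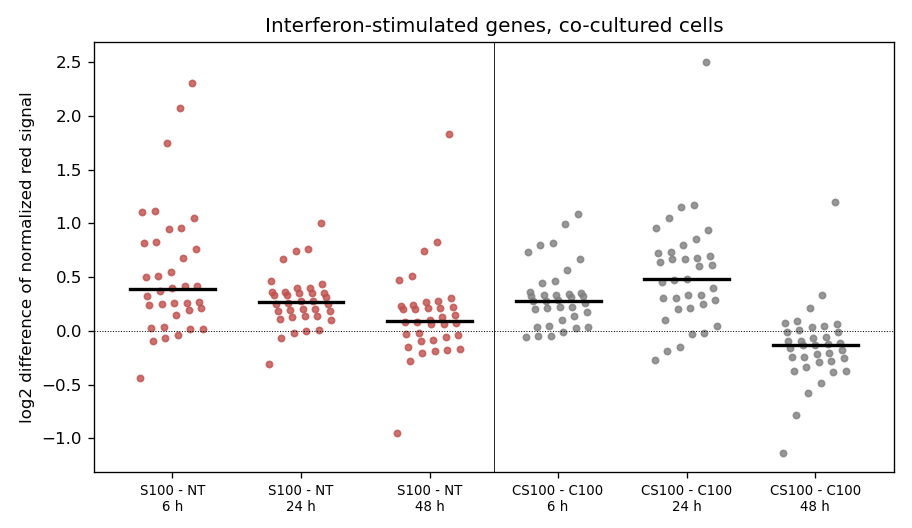
Log2 differences of normalized red signal for 36 interferon-stimulated genes (points) with the list median (bar), in S100 minus NT and in CS100 minus C100 co-cultured cells at 6, 24 and 48 h, 1 array against 1 array in each column. The medians were 0.39, 0.27 and 0.09 without cortisol and 0.28, 0.48 and -0.13 with it.

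The promoters of 3 of these genes are shown with a response element known from interferon-stimulated genes. The motif searched was the interferon response element core GAAANNGAA on both strands, in the 250 bases before each start site in RefSeq's table for GRCm38.p6. Of the 36 genes 28 had a promoter there and 17 of them (60.7%) held the motif, against 8.18% of 27025 genes and 7.13% of 32851 promoters. A match is a description of letters and not evidence of binding. Each run is given 5′ to 3′ in the direction of its gene, with matches in capitals; the first 2 matches of Ifit1 overlap.
Ifit1 (chr19:34640639-34640888, plus strand): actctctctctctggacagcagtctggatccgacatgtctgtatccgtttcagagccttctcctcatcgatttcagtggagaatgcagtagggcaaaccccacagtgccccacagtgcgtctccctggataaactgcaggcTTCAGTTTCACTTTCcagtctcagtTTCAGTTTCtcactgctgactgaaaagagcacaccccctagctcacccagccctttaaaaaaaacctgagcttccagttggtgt
Rsad2 (chr12:26456453-26456702, minus strand): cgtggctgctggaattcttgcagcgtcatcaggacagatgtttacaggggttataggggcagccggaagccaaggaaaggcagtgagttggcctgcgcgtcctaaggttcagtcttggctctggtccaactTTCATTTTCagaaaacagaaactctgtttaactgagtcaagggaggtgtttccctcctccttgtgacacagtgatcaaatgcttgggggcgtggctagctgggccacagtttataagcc
Cxcl10 (chr5:92348890-92349139, minus strand): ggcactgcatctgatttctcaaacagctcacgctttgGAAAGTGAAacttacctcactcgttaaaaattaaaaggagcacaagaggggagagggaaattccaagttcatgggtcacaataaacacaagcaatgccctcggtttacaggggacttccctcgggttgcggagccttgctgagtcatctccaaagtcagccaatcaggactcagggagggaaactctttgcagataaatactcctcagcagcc
Ifit1 held 3 matches and the other genes 1 each. Ifit1 and Rsad2 differed by 1.05 and 1.12 at 6 h, and Cxcl10 by 0.94.

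Genes of the TNF pathway, a list taken from the genes the study names and so chosen on these samples, were apart at 48 h. Of 9 genes tested, 5 were at least 1.5-fold higher in S100 cells at 48 h, beside 5.12% of all genes, and 0 at 6 h and at 24 h. The list's median difference was 0.09, 0.14 and 0.96 at 6, 24 and 48 h, and 0 members were called over the 3 pairs. In CS100 over C100 the median at 48 h was 0.14 with 0 of 9 past the fold on the high side, beside 3.84% of all genes. Il6, the inflammatory cytokine, measured 13.76, 14.39 and 14.55 in S100 cells and 13.70, 14.09 and 13.28 in NT cells, a mean difference of 0.54 (SE 0.19, adjusted p = 0.719) that rested on the 48 h pair. Ptgs2, the inducible cyclooxygenase, measured 13.05, 13.37 and 12.74 against 12.95, 13.20 and 11.15. Csf2, which encodes GM-CSF, measured 10.52, 12.38 and 11.27 in S100 cells and 10.26, 12.65 and 10.12 in NT cells. The neutrophil chemokine Cxcl1 measured 14.97, 15.15 and 14.45 against 14.87, 15.27 and 13.49, and the receptor adaptor Traf1 11.66, 11.26 and 11.51 against 11.80, 11.33 and 10.34. At 6 h and 24 h the 2 groups lay within 0.30 of each other for all 5. In the cells alone of the S100 and NT arrays the list's medians were -0.13, -0.60 and -0.44 at 6, 24 and 48 h. The green S100 labels of 6 h and 24 h went against Zbtb16.

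The other 48 h arrays placed the NT array differently from gene to gene. For each of Il6, Csf2, Traf1, Cxcl1 and Ptgs2 the S100 array was the highest of 4. For Il6, Csf2 and Traf1 NT lay above C100, with 13.28, 10.12 and 10.34 on the NT array and 13.19, 8.76 and 10.13 on the C100 array. For Cxcl1 and Ptgs2 the NT array was the lowest of the 4: C100 and CS100 measured 14.26 and 14.30 for Cxcl1 and 12.02 and 12.10 for Ptgs2. Mmp3, a stromelysin, measured 15.31 in S100 cells and 14.81 in NT cells at 48 h, and Tnfaip3, which encodes the inhibitor A20, 14.20 and 13.92. Fos and Nod2 differed by less than 0.03 at 48 h.

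**Figure D5:**
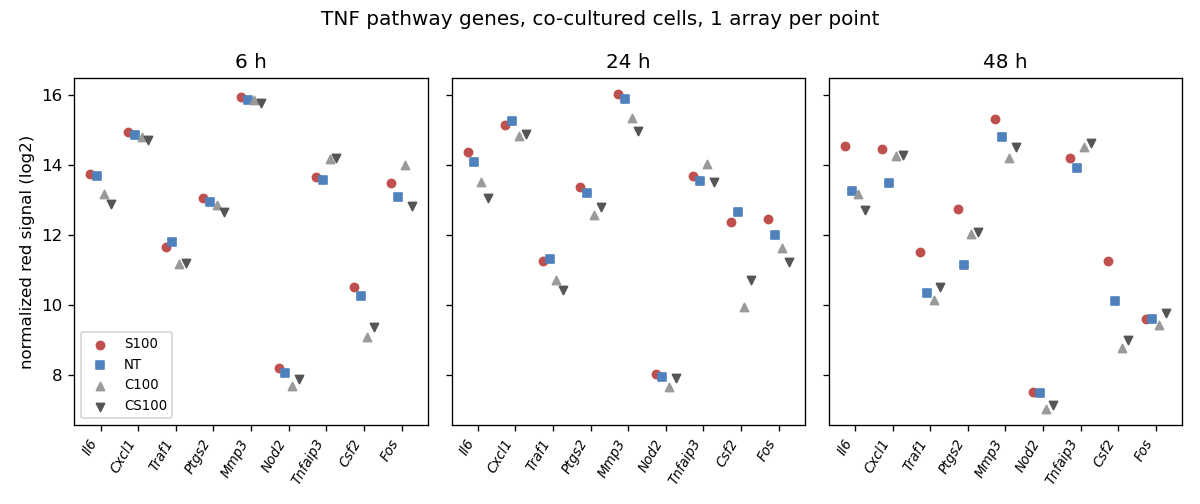
Normalized red signal (log2) of the 9 TNF pathway genes in co-cultured cells at 6, 24 and 48 h, with 1 point per array for S100, NT, C100 and CS100. S100 and NT nearly coincide at 6 h and 24 h, and at 48 h S100 lies 0.96 to 1.59 above NT for Il6, Cxcl1, Traf1, Ptgs2 and Csf2.

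A pair of promoters is shown for comparison with the kappa-B consensus, the site bound by NF-kB, which 4 of the 9 genes, 8.23% of all genes and 7.25% of all promoters held in the same window on either strand.
Il6 (chr5:30012864-30013113, plus strand): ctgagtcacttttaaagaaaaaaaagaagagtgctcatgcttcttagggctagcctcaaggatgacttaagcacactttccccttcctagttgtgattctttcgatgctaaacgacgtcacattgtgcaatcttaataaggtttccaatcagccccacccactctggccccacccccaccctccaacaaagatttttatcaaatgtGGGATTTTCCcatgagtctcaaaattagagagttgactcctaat
Cxcl1 (chr5:90890995-90891244, plus strand): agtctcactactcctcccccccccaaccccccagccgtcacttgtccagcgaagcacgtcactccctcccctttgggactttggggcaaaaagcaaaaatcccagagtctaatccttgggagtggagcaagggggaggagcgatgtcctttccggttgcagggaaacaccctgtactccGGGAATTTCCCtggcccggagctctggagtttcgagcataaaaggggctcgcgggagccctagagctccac
Capitals again mark the match, which in Cxcl1 is read on both strands and overlaps itself. Il6 was 1.27 and Cxcl1 0.96 higher in S100 than in NT cells at 48 h.

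The wider NF-kB list gave the same time. Of its 29 genes, 8 were at least 1.5-fold higher in S100 cells at 48 h, beside 5.12% of all genes, and 7 of them were well above background on both arrays. At that time 24 were higher by any amount, beside 48.0% of all genes, with a median of 0.30, while the medians at 6 h and 24 h were -0.02 and -0.11. In CS100 over C100 the list's median at 48 h was 0.05 with 0 of 29 past the fold on the high side. It shares 4 of its 8 genes, Il6, Cxcl1, Traf1 and Ptgs2, with the TNF list. The remaining genes were Nfkbiz, Nfkbie and Ripk2 of NF-kB and receptor signalling, and the adhesion molecule gene Vcam1, at 11.97 in S100 cells and 11.36 in NT cells. Among cytokine genes Il1a measured 8.76, 9.95 and 10.69 in S100 cells against 8.17, 9.62 and 8.48 in NT cells (mean difference 1.04, SE 0.35), and Csf3 8.88, 9.34 and 10.72 against 8.78, 9.91 and 8.78. Of 22 metalloproteinase and inhibitor genes 5 were past the fold on the high side at 48 h, beside 5.12% of all genes, and 1 on the low side, beside 6.69%. Among the higher genes were the collagenase Mmp13, at 12.88 in S100 cells and 11.85 in NT cells, and the aggrecanase Adamts4, at 14.14 and 13.14. The lower one was Mmp1a, an interstitial collagenase, at 8.12 in S100 cells and 9.07 in NT cells. Ccl3 and Ccl4, macrophage-attracting chemokines, measured 9.67, 10.03 and 11.72, and 4.99, 5.10 and 9.62 in S100 cells, against 10.80, 11.00 and 11.42, and 6.99, 5.15 and 10.31 in NT cells. With cortisol Ccl3 was higher under serotonin at each time, at 11.30, 11.21 and 11.34 in CS100 cells and 8.21, 8.60 and 8.83 in C100 cells. That mean difference was 2.74 (limma adjusted p = 0.0505). Some macrophage markers were higher in S100 than in NT cells at 48 h: 3 of 13 were at least 1.5-fold higher (Itgam, Cd14 and Clec4e), beside 5.12% of all genes. Csf1r, at 10.60 in S100 cells and 10.56 in NT cells, and Aif1, Ctss and Fcer1g, which were lower by less than 0.20, did not go with them. The summed signal of the 13 at 6, 24 and 48 h was 40761, 27669 and 37014 on the S100 arrays and 43153, 32897 and 25197 on the NT arrays. Without Clec4e it was 19146, 18555 and 23779 on the S100 arrays and 19530, 18434 and 18493 on the NT arrays. Their part in the 48 h result was not tested.

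Most genes that handle serotonin were near background. Of 31 genes listed, 30 had a named probe, 12 could be tested, and 16 were not well above background on any of the 6 arrays. The receptor genes Htr1a, Htr1b, Htr4, Htr6 and Htr7 were among those 16. At 6 h 7 of the 12 were at least 1.5-fold higher in S100 cells, beside 12% of all genes, but 6 of these 7 were not well above background on the NT array. The list's 6 h median was 1.13 after quantile normalization, 0.27 after loess and -0.09 after 75th percentile scaling. Maoa, the main enzyme of serotonin breakdown, was the brightest, at 12.03, 11.78 and 11.64 in S100 cells and 12.38, 12.14 and 12.09 in NT cells. It was lower in 3 of 3 pairs (differences of -0.35, -0.36 and -0.45) without overlap between the groups, below 1.5-fold and not called (mean difference -0.39, SE 0.10, adjusted p = 0.719). C100 cells measured 12.03, 12.11 and 11.91.

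Htr2a, a receptor that acts through phospholipase C, measured 7.25, 7.87 and 7.52 in S100 cells and 7.86, 7.70 and 7.22 in NT cells, with overlapping groups and no common direction. Htr2b, its close relative, measured 5.40, 4.80 and 8.65 against 3.77, 5.78 and 7.12. It was highest at 48 h in both groups, and at 48 h 4.57 on the C100 array. The transporter Slc6a4 measured 4.73, 4.62 and 5.29 in S100 cells and 2.77, 4.85 and 5.93 in NT cells. Maob, the other monoamine oxidase, measured 7.02, 8.24 and 7.99 against 6.47, 8.09 and 7.54. Aldh2, which oxidizes the aldehyde that monoamine oxidase makes, measured 9.69, 10.31 and 10.43 against 9.43, 10.11 and 10.28, and Tgm2, a transglutaminase that can couple serotonin to proteins, 8.09, 8.33 and 9.12 against 7.91, 8.25 and 9.05. Tph1, Ddc, Slc18a1, Slc18a2 and Aanat lay between 2.64 and 6.78 on these arrays. Slc22a2, an organic cation transporter gene named after its values were seen, was well above background on 2 of the 12 arrays, S100 at 24 h and 48 h, at 5.93 and 5.77, against 2.20 and 2.19 in NT cells. It was not tested because too few arrays passed the filter, and at 6 h it measured 2.46 in S100 cells and 2.24 in NT cells.

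Cell cycle genes were slightly higher in serotonin-treated cells, most at 24 h. Of 37 genes, 26, 32 and 22 were higher in S100 than in NT cells at 6, 24 and 48 h, against 53.2%, 49.4% and 48.0% of all genes, with medians of 0.15, 0.32 and 0.05. At 24 h 3 were at least 1.5-fold higher, beside 1.84% of all genes: the topoisomerase Top2a, the checkpoint kinase Bub1b and the kinesin Kif11. At the same time 1 was at least 1.5-fold lower, beside 2.17%: Cdc6, which loads the replication helicase, at 4.63 in S100 cells and 7.02 in NT cells. Top2a measured 10.40, 11.37 and 11.32 in S100 cells and 10.08, 10.72 and 11.28 in NT cells. The replication helicase subunit Mcm3 measured 13.68, 14.03 and 13.45 against 13.39, 13.66 and 13.21, and the G1 cyclin Ccnd1 15.71, 15.03 and 14.36 against 15.27, 14.64 and 14.36. In CS100 over C100 the list's medians were -0.08, 0.07 and -0.02. In the cells alone of the S100 and NT arrays they were 0.15, 0.56 and -0.21. There 35 of 37 genes were higher at 24 h, beside 48.9% of all genes. The green S100 labels of 6 h and 24 h went against Zbtb16.

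Among transcripts tied to receptor signalling, Dusp1, a phosphatase that acts on MAP kinases, measured 13.66, 13.02 and 13.51 in S100 cells and 13.03, 12.36 and 13.18 in NT cells, higher in 3 of 3 pairs (0.54, SE 0.12, adjusted p = 0.719). The medians of 27 immediate early genes (0.04, 0.18 and -0.01), of 23 cyclic AMP and CREB targets (0.06, 0.10 and 0.07) and of 20 TGF-beta targets (0.13, -0.05 and 0.07) were small. The 14 ERK feedback genes had medians of -0.10, -0.02 and 0.29. In the matrix, Col1a1, the main collagen chain of fibroblasts, measured 12.57, 12.42 and 13.68 in S100 cells and 13.08, 13.09 and 14.21 in NT cells (-0.57, SE 0.14, adjusted p = 0.719), lower in 3 of 3 pairs, while the median of 33 collagen and matrix genes was 0.08, 0.04 and 0.01. Loxl2, a collagen cross-linking enzyme, measured 9.75, 9.95 and 10.79 against 10.10, 10.23 and 12.12.

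Lipid genes had small medians. The 25 lipid and glucose genes that the study names had medians of 0.02, 0.02 and -0.03 with 0 members past the fold on the high side and 1 on the low side (Acsbg1 at 48 h, 12.14 in S100 cells and 12.74 in NT cells), and 18 adipocyte differentiation genes had medians of -0.01, 0.0048 and 0.06. Pparg, the main regulator of adipogenesis, measured 11.87, 11.89 and 11.83 in S100 cells and 11.92, 11.89 and 11.77 in NT cells. Of 23 cholesterol synthesis genes 21 were higher in S100 cells at 48 h, beside 48.0% of all genes, with a median of 0.28. The isomerase Idi1 measured 12.34 in S100 cells and 11.41 in NT cells at 48 h, and the feedback regulator Insig1 7.17 and 5.85. At 6 h and 24 h this list's medians were -0.09 and -0.01. In the cells alone of the 48 h arrays 20 of the 23 were higher under S100, beside 47.3% of all genes, with a median of 0.145. In CS100 over C100 at 48 h 15 were higher, beside 53.2%, with a median of 0.075. For S100 over NT in co-culture the medians of 15 housekeeping genes were -0.02, -0.02 and -0.05. Of 33 hypoxia and glycolysis genes 10 were lower at all 3 times and 6 higher, beside 1764 lower and 1911 higher of 12612 genes. Among the lower was Adm, the peptide adrenomedullin, at 13.71, 13.72 and 13.99 in S100 cells and 14.12, 14.04 and 14.48 in NT cells.

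The most extreme differences at a single time came from single spots. At 24 h the ribosomal gene Rps27a measured 6.72 in S100 cells and 15.63 in NT cells, the respiratory chain gene Ndufa12 7.33 and 14.72, Tbc1d32 4.85 and 10.67, and Mitd1 6.52 and 10.97. For each of these the green signal of the same S100 spot was low as well, for Rps27a 8.07 in S100 cells alone and 15.57 in NT cells alone. A second probe of Rps27a measured 12.01 in S100 cells and 11.97 in NT cells at 24 h. At 48 h Psmd1, a proteasome subunit gene, measured 9.06 in S100 cells and 15.85 in NT cells, with its green spot marked as an outlier. On the high side at 48 h the decay factor gene Upf2 measured 11.62 in S100 cells and 6.09 in NT cells, and the fatty acid synthase gene Fasn 8.89 and 5.12, and the green signals of the NT spots were 3.72 and 2.33. Pcmtd1 was 5.49 higher at 24 h and differed by -6.16 at 48 h, whereas its second probe differed by -0.39 and 0.38. At 6 h both ends of the ranking, Krt17, Grb10 and Lrrc75b on the high side and Zc3h12b, Fgfr2 and Kcnk15 on the low side, lay between 4.45 and 8.56.

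Serotonin-treated cells were separate from cortisol-treated cells in the same fit. S100 minus C100 gave 95 genes higher (0.735%) and 76 lower (0.588%) of 12920. Zbtb16 was different by -2.25 (SE 0.24, adjusted p = 0.0038), and the immunophilin gene Fkbp5 by -0.76 (SE 0.10, adjusted p = 0.0091). Acod1, which makes itaconate, was 1.21 higher (SE 0.12, adjusted p = 0.0022), and Csf2 was 2.13 higher (SE 0.28, adjusted p = 0.0091). Against NT the same genes differed by 0.31, -0.21, 0.12 and 0.38, with adjusted p of 0.763, 0.719, 0.804 and 0.754. Of the 36 interferon-stimulated genes 8 were called higher in S100 than in C100 cells and 0 lower, while 0 were called against NT. Rsad2 was 1.31 above C100 but 0.51 above NT, Usp18 1.02 and 0.39, and Cxcl10 1.18 and 0.64. For these 3 genes C100 also lay below NT at every time, with Rsad2 at 9.36, 10.72 and 10.45 on the C100 arrays. Without the S100 array of 24 h this comparison called 21 genes in place of 171, and without that of 48 h it called 19, so its size rests on each of these arrays, and without that of 6 h it called 93.

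The serotonin effect in co-culture was set against that in cells alone, as the red minus green difference of each array. Of 12920 genes limma called 0 (0 percent), with 1586 at an unadjusted p under 0.05 and a smallest adjusted p of 0.090. The green labels of the S100 arrays at 6 h and 24 h were in doubt. Without these arrays the serotonin group held 1 array, whose spread was taken from the other groups. The count was then 0 with 525 genes at an unadjusted p under 0.05, and without the CS100 array of 24 h as well it was 0 with 641. Rsad2 differed by 1.05 and Cxcl10 by 1.12 between the effects, with adjusted p of 0.408 and 0.477, on arrays that include those in doubt.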

How the data were processed

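The deposited Agilent files hold linear intensity values per spot and channel, processed intensity values after background subtraction and dye normalization, quality flags and other columns, and the log10 of the Cy5 to Cy3 ratio, made by the authors with Feature Extraction (10.7.3.1 in the file headers, 10.5.1.1 in the submitters' notes). The deposited value table holds the same log10 ratio, within 0.005 on every array, with a median of 0. Processed red intensities were log2-transformed and quantile normalized over 12 arrays with limma 3.58.1 in R 4.3.3. Control and outlier spots were left out and spots of a probe averaged. Of 39429 probes 27520 were named through RefSeq (GRCm38.p6), giving 20887 symbols. Probes had to be well above background on at least 3 of the 6 S100 and NT arrays. Each gene was read from its brightest probe, which left 12920 genes.

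Red values of all 12 arrays were fitted with time and treatment as terms (lmFit, eBayes with trend), and adjusted p-values are limma's, Benjamini-Hochberg adjusted and two-sided. A call needed an adjusted p under 0.05 and 1.5-fold, the study's fold. Nothing says that arrays came from separate cultures, so p-values measure the spread between these arrays. In simulated data of this comparison on 12416 genes, 82 of 100 genes changed 1 on the log2 scale were called. So were 93 of 100 changed 2, with 5 false calls. Whether these shares hold for the measured arrays, where the differences at the 3 times barely correlated, was not tested. Named genes were the 10 higher and 10 lower of smallest p with a mean of at least 1.5-fold and the same sign in 3 pairs, the 6 highest and 6 lowest at each time, list members and genes the study names. The members and the 39 lists were chosen with earlier results of these data known. The planned normexp alternative used median signals, since mean signals were not in the files used here.

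Alternatives were other normalizations, background corrections, filters, probe rules, fold thresholds, array weights, eBayes settings, 6 arrays alone, no time term and leaving out arrays. A brightness bound, both arrays of a pair above background, the mean of S100 over NT and CS100 over C100, and leaving out doubted arrays from the comparison with cells alone were added after seeing the data. The number of arrays limits the precision.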

Additional observations from a re-analysis of the deposited data

Results flagged for a closer look

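The cells grown alone, which the comparison of co-cultured cells does not use, carried a signal in the S100 arrays above that of the NT arrays. In this Cy3 channel Zbtb16 was 2.27 higher on the log2 scale in S100 than in NT cells at 6 h and 2.07 higher at 24 h. Tsc22d3, another glucocorticoid-induced gene, was 1.04 and 0.54 higher. The median of 22 glucocorticoid-induced genes was 0.409 and 0.294 higher at these times, against 0.067 at 48 h. In the co-cultured cells of the same arrays the list's median difference was 0.06, 0.15 and -0.08 at 6, 24 and 48 h. The CS100 array of 24 h went the other way in Cy3, with Zbtb16 at 8.32, against 10.09 for the same array in Cy5. How these channels came to differ was not tested.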

How the results depend on the processing

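No gene was called over the 3 pairs under the 75th percentile, loess, normexp and 24-channel normalizations, the all-6 filter, the mean of probes, 6 arrays alone, no time term, other fold thresholds or eBayes settings, or the mean with CS100 over C100 (80 to 890 genes at an unadjusted p under 0.05). Leaving out each of the 6 S100 and NT arrays in turn also called 0 (600 to 1419). Exceptions were no filter, 2 genes (Lrriq1 and Slc7a15), array weights, 2 (Fmnl3 higher, Twsg1 lower), without S100 6 h and 24 h, 1, and without CS100 24 h as well, 1, both Psmd1. These last fits hold 1 S100 array, and their call is its single Psmd1 spot at 48 h. With array weights Fmnl3 was 1.04 higher (SE 0.12, adjusted p = 0.042). Counts past the fold at 6, 24 and 48 h were 2015, 517 and 1507. They were 774, 237 and 719 after loess, 817, 266 and 771 after normexp, 876, 289 and 990 with the all-6 filter, 5346, 2174 and 3517 with no filter, 1219, 168 and 521 at 2-fold, and 183, 113 and 304 at a mean log2 of at least 10. With both arrays above background 1080 remained at 6 h. The 16 genes past the fold at all times became 1 after loess and 2 with the all-6 filter. The higher share was 36.7% after loess at 24 h against 45.8%. S100 minus C100 called 171, and 19 to 93 without each S100 array. Comparison with cells alone gave 0 under every alternative run. Signals near background limit the 6 h counts most.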
